A study of Mus musculus with 10 samples.

Results

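The genes described here encode 10 subunits of the SWI/SNF chromatin remodelling complexes: Smarca4, Smarca2, Smarcb1, Smarcc1, Smarcc2, Smarcd1, Smarcd2, Smarcd3, Arid1a and Arid1b. They were chosen by symbol through GENCODE vM21, and all 10 were found among the 55487 genes of each table. The series holds 10 samples of E14, a mouse embryonic stem cell line, of which 7 are R-loop maps (MapR, BisMapR and their controls) that were not analysed here. The other 3 are RNA-seq replicates of cells that the labels give no genetic change, cultured with serum, LIF and inhibitors of GSK and of MEK1/2. With 1 group of samples, the comparisons are between paralogs within each library and between the replicates of a gene. The labels do not say whether the replicates were separate cultures, so the spread given as the error may be technical.

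SWI/SNF complexes, also called BAF complexes, use the energy of ATP to slide or evict nucleosomes and so open promoters and enhancers. Each complex is built from fixed positions, and at most positions several related genes compete for the same place, so that the choice of paralog defines the form of the complex. Mouse embryonic stem cells are known for a form called esBAF, built on the ATPase Smarca4 and the scaffold Smarcc1, whereas neurons and muscle use other paralogs. Loss of Smarca4, Smarcb1 or Arid1a is lethal to the early mouse embryo.

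Estimated counts summed to 11420425 in replicate 1, 6467405 in replicate 2 and 5787357 in replicate 3. A count of 3, taken as the floor for detection, was 0.263, 0.464 and 0.518 CPM (counts scaled to the library's total). All 7 pluripotency markers listed had a mean of at least 1 TPM (the share of all transcripts in a library, from counts divided by transcript length), with a summed level of 451.6 to 622.4 TPM. The listed markers of fibroblasts (6 genes) summed to 1.79 to 4.57 TPM, with Col3a1 and Dcn at 0 counts. Most of that sum was Thy1, at 3.02, 3.3 and 1.19 TPM in replicates 1, 2 and 3. Pdgfrb had 1.42, 0.96 and 0.55 TPM. The listed markers of mesoderm and heart (5 genes) summed to 0 to 0.24 TPM, with every gene at or under 3 counts. The 6 neural markers summed to 10.7 to 16.2 TPM, nearly all of it Tubb3 at 11.6 ± 2.47 TPM (SD, n = 3), with Dcx at 0 counts. The 4 endoderm markers summed to 0.3 to 0.74 TPM, most of it Gata4 at 0.45 ± 0.19 TPM (SD, n = 3), with Foxa2 at 0 counts. In bulk RNA, fewer cells that express a gene and less RNA per cell cannot be told apart.

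Of the 10 genes, 9 had a mean of at least 1 TPM, against 44.1% of annotated protein-coding genes and 19.8% of all genes. The exception was Smarca2. The median of the 10 mean levels was 8.61 TPM, and that of the 9683 protein-coding genes with a mean of at least 1 TPM was 5.73 TPM. From highest to lowest mean the order was Smarcc1, Smarcd2, Smarca4, Smarcb1, Smarcd1, Arid1a, Smarcc2, Arid1b, Smarcd3 and Smarca2. Of the 9 neighbouring pairs in that order, 8 had replicate ranges that overlapped. The pair that did not overlap was Smarcd3 and Smarca2. Compared within each library, 5 of the 9 neighbouring pairs kept the same order in every replicate. Over all 45 pairs of the 10 genes, 27 had ranges that did not overlap, against 74.4% of all pairs of expressed protein-coding genes. The same order in every replicate was kept by 41 of the 45 pairs (91.1%), against 88.8% of the same background. That background holds only genes with a mean of at least 1 TPM, whereas the 45 pairs include those of Smarca2. Smarca2 lay below every value of the other members, so each of its pairs adds to both the 27 and the 41. By their means, the first 6 genes in that order lay between 8.54 and 19.6 TPM and the last 4 at or below 2.62 TPM, the latter being Smarcc2, Arid1b, Smarcd3 and Smarca2. Replicate 1 had the highest TPM for all 10 genes and replicate 3 the lowest for 9. The median over the 10 genes was 12.3, 9.35 and 4.21 TPM in replicates 1, 2 and 3, and that over the expressed protein-coding genes 7.11, 5.58 and 4.39 TPM.

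**Figure D1:**
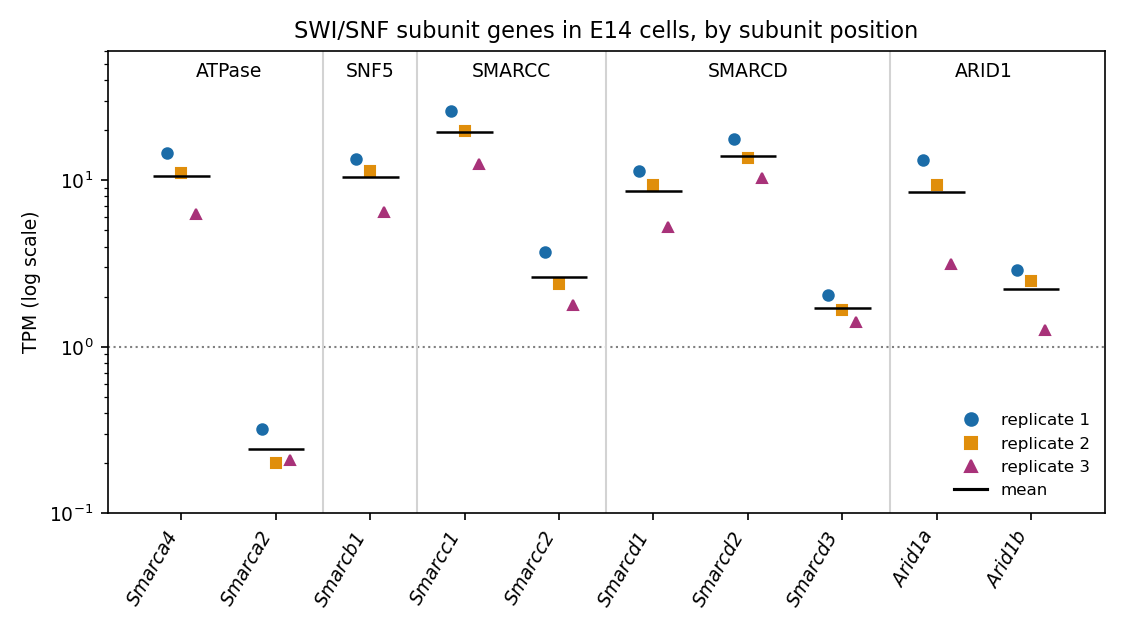
TPM (log scale) of the 10 subunit genes in each replicate, grouped by position in the complex; points are replicates, black bars their means, and the dotted line marks 1 TPM. Smarca2 lies below 1 TPM in every replicate and its paralog Smarca4 between 6.25 and 14.65.

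The ATPase is the motor of the complex, and Smarca4 (BRG1) and Smarca2 (BRM) exclude each other from it. Smarca4 (ENSMUSG00000032187, GRCm38 chromosome 9, 21616169 to 21704230, plus strand) had 14.65, 11.02 and 6.25 TPM in replicates 1, 2 and 3, from 2038, 1091 and 602 counts. Its mean of 10.6 ± 4.21 TPM (SD, n = 3) lay above that of 86.8% of annotated protein-coding genes. Smarca2 (ENSMUSG00000024921, chromosome 19, 26605050 to 26778322, plus strand) had 0.32, 0.2 and 0.21 TPM, from 16, 6 and 5 counts, all above the floor of 3 counts. Its mean was 0.243 ± 0.067 TPM (SD, n = 3). The levels of the pair did not overlap, and Smarca4 made up 97.9%, 98.2% and 96.7% of their summed TPM.

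The log2 ratio of Smarca4 to Smarca2 was 5.40 ± 0.46 (SD, n = 3), or 42.2-fold, and was above 0 in 3 of 3 replicates. Counting error alone left a wide interval: 45.8-fold in replicate 1 (exact Clopper-Pearson 95% interval 28.5 to 81.2), 55.1-fold in replicate 2 (24.9 to 148.7) and 29.8-fold in replicate 3 (12.6 to 91.2). These intervals include no error but that of counting, and reads copied from 1 molecule by PCR count more than once in them. For this and the other paralog ratios, a two-sided exact sign-flip permutation test over 3 replicates cannot give a p below 0.25. All 6 pairs compared gave that value, raw and after Benjamini-Hochberg adjustment, so the ratios are read against their SD and counting interval.

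The size of the ratio depended on the length assigned to Smarca2. The tables list 46 transcripts for it, from 421 to 5921 nt, and the authors' estimate weighted by isoform share gave a length of 2004, 1708 and 1376 nt in replicates 1, 2 and 3, or 28.6% of the longest on average. For Smarca4, with 4 transcripts listed, the weighted length was 5268, 5360 and 5208 nt, or 82.8% of the longest. Scaling the counts by the longest transcript of each gene instead raised the log2 ratio to 7.03, and CPM without length scaling raised it to 7.14. Divided by a longer length, the same counts of Smarca2 would give a lower TPM.

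The sequences before the start sites of both ATPase genes, and of Smarcc1, are shown because Smarca4 and Smarcc1 were the higher paralogs of their pairs and share a motif there. They come from RefSeq (GRCm38.p6), 5′ to 3′, cut to the bases before the RefSeq start and outside annotated exons. The Smarcc1 start lies inside the annotated gene, downstream of its outermost start. The motif was chosen with the levels known. Capitals mark CGCATGC on either strand, the core of the motif of NRF1, a factor known at promoters of broadly expressed genes.
Smarca4, chr9:21615919-21616168, strand +: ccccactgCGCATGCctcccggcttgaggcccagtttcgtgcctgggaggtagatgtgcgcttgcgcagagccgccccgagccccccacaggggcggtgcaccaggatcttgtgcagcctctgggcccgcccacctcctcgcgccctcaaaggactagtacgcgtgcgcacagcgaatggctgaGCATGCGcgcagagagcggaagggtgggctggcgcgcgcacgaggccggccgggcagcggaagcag
Smarca2, chr19:26604910-26605049, strand +: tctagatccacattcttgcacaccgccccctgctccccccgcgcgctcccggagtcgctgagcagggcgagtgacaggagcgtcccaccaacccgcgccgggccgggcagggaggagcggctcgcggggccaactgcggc
Smarcc1, chr9:110131774-110131979, strand +: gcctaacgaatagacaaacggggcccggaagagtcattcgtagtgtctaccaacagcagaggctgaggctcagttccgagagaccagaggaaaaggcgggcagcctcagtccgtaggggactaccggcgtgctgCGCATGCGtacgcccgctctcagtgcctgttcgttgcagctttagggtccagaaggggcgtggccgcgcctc
The Smarca4 sequence holds 2 matches, and that of Smarcc1 holds 2 that overlap each other. The part of Smarca2 shown is 140 bases and holds 0 matches.

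RefSeq windows of 300 bases (250 before to 50 after a start) matched all 10 genes with 11 windows, since Arid1a has a pair of them. CGCATGC on either strand was present in those of Smarca4, Smarcc1 and Smarcb1, where it lies in an annotated exon. That is 3 of 11 windows, against 3.58% of all 32851 windows. Of the 9 windows of the set with at least 27 CpG, 3 held it, against 7.32% of all 5097 such windows. The cutoff of 27 was the lowest CpG count among the 3 windows with the motif. With the motif chosen after the levels were known and the cutoff taken from these windows, the shares cannot decide whether it is enriched. No match lay in the windows of Smarcd2, Smarcd1 and Arid1a, each also the higher paralog of a pair. The windows of Smarca4 and Smarca2 held 33 and 29 CpG, exceeded by 7.73% and 11.7% of all windows, whose median was 7. The window of Smarcc2, a low gene, held 48 CpG, exceeded by 1.02% of windows. The window of Smarcd2, the second-highest gene, held 4 CpG and a TATAAA (searched on either strand, present in 13.6% of windows). That window lies inside the annotated gene, downstream of its outermost start, and which start was used was not measured. CCGGAA, the core of ETS factor motifs, was present on either strand in windows of Smarca2, Smarcc1, Smarcd1 and Arid1a. That is 4 of 11 windows, against 14.9% of all windows. Among all windows with at least 27 CpG, which include 9 of the 11, the share was 28.6%. The Arid1a window with the match held 22 CpG and lies outside that subset. AAGATGGC, the core of the YY1 motif, was present in 1 of 11 windows, that of Smarcd1, against 2.75% of all windows and 4.16% of those with at least 27 CpG. These matches describe letters only.

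Smarcb1 (ENSMUSG00000000902, chromosome 10, 75896769 to 75921617, minus strand), the SNF5 subunit that contacts the nucleosome, has no paralog and served as the reference for the other positions. Its level was 13.49, 11.33 and 6.45 TPM in replicates 1, 2 and 3, a mean of 10.4 ± 3.61 TPM (SD, n = 3). The values of Smarcb1 and Smarca4 overlapped, and neither was the higher in all replicates. The summed TPM of the ATPase pair was 14.97, 11.22 and 6.46, with a log2 ratio to Smarcb1 of 0.05 ± 0.09 (SD, n = 3). That near-equal level held for TPM and not for CPM, where the ratio was 1.45; the weighted length of Smarcb1 was 27.5% of its longest transcript.

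The SMARCC proteins form the scaffold on which the complex assembles. Smarcc1 (BAF155; ENSMUSG00000032481, chromosome 9, 110117708 to 110240178, plus strand) was the highest of the 10 genes, with 26.21, 19.9 and 12.59 TPM and a mean of 19.6 ± 6.82 TPM (SD, n = 3). Smarcc2 (BAF170; ENSMUSG00000025369, chromosome 10, 128459248 to 128490482, plus strand) had 3.7, 2.37 and 1.79 TPM, a mean of 2.62 ± 0.98 TPM (SD, n = 3). Every value of Smarcc1 lay above every value of Smarcc2. The log2 ratio was 2.90 ± 0.14 (SD, n = 3), or 7.48-fold, and the smallest lower bound of the counting intervals was 2.53, in replicate 3. Smarcc1 made up 88.2% ± 1.02 (SD, n = 3) of the summed TPM. The summed SMARCC level exceeded that of Smarcb1 by 1.09 ± 0.10 (SD, n = 3) on the log2 scale, and by 2.21 with CPM.

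**Figure D2:**
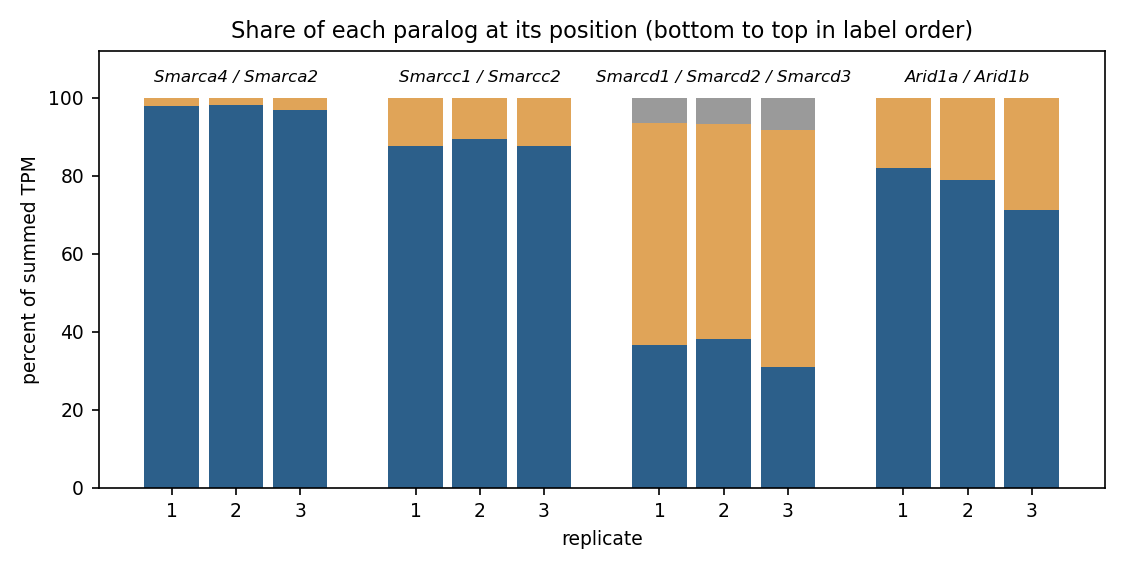
Percent of the summed TPM at a position held by each paralog, 1 bar per replicate, for the ATPase, SMARCC, SMARCD and ARID1 positions; colours run from bottom to top in the order of the label above the bars. Smarca4 holds 96.7 to 98.2% of its position, while no SMARCD gene exceeds 60.9%.

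The SMARCD position, whose proteins link the complex to transcription factors, had a pair of genes above the median of the 10. Smarcd2 (BAF60b; ENSMUSG00000078619, chromosome 11, 106263179 to 106272972, minus strand), known for its part in granulocyte formation, had 17.73, 13.61 and 10.39 TPM, a mean of 13.9 ± 3.68 TPM (SD, n = 3). Smarcd1 (BAF60a; ENSMUSG00000023018, chromosome 15, 99702129 to 99713991, plus strand), the form described in esBAF, had 11.39, 9.38 and 5.26 TPM, a mean of 8.68 ± 3.12 TPM (SD, n = 3). Their ranges overlapped, but Smarcd2 was the higher in 3 of 3 replicates and every counting interval stayed on that side. The log2 ratio of Smarcd1 to Smarcd2 was -0.72 ± 0.23 (SD, n = 3). That direction rested on the scaling by length: with CPM the ratio was 0.26, with Smarcd1 higher, and with the longest transcript of each gene it was -0.012. The authors' weighted length was 3194 nt on average for Smarcd1 and 1694 nt for Smarcd2.

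Smarcd3 (BAF60c; ENSMUSG00000028949, chromosome 5, 24590818 to 24624411, minus strand), the paralog of heart, muscle and neurons, had 2.05, 1.66 and 1.4 TPM, from 87, 50 and 39 counts. It lay below both paralogs in every replicate without overlap. The log2 ratio was 2.29 ± 0.33 (SD, n = 3) for Smarcd1 over Smarcd3 and 3.01 ± 0.11 (SD, n = 3) for Smarcd2 over Smarcd3, the smallest spread of the 6 ratios. Smarcd1 over Smarcd3 was 3.28 with CPM and 3.47 with the longest transcripts. Of the 5201 distinct words of 50 nt in the Smarcd3 transcripts, 2286 occur on the opposite strand of Chpf2 or Mir671, which overlap it. Chpf2 had a mean of 61.3 counts, and the strand setting of the counting is not given in the sources used here, so reads of Smarcd3 and Chpf2 may not be separable. The 3 SMARCD genes together exceeded Smarcb1 by 1.24 ± 0.14 (SD, n = 3) on the log2 scale.

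The ARID1 proteins bind DNA and mark the canonical form of the complex, where they too exclude each other. Arid1a (BAF250A; ENSMUSG00000007880, chromosome 4, 133679008 to 133756769, minus strand) had 13.16, 9.32 and 3.15 TPM in replicates 1, 2 and 3, from 2202, 1118 and 309 counts, a mean of 8.54 ± 5.05 TPM (SD, n = 3). Its value in replicate 3 was the low one. Arid1b (BAF250B; ENSMUSG00000069729, chromosome 17, 4994332 to 5347656, plus strand) had 2.88, 2.48 and 1.27 TPM, a mean of 2.21 ± 0.84 TPM (SD, n = 3). Arid1a was the higher without overlap, by a log2 ratio of 1.80 ± 0.45 (SD, n = 3).

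The Arid1a to Arid1b ratio was not the same in every library. It was 4.57-fold in replicate 1, 3.76-fold in replicate 2 and 2.48-fold in replicate 3, where the counting interval of the log2 ratio (1.04 to 1.58) did not reach those of replicate 1 (2.06 to 2.33) and replicate 2 (1.72 to 2.10). Arid1a held 82.0%, 79.0% and 71.3% of the summed TPM in that order. Without replicate 3 the log2 ratio was 2.05. Against Smarcb1, the summed ARID1 level was 0.25, 0.06 and -0.55 on the log2 scale, so that its sign differed between libraries. With CPM the mean of that ratio was 1.60.

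**Figure D3:**
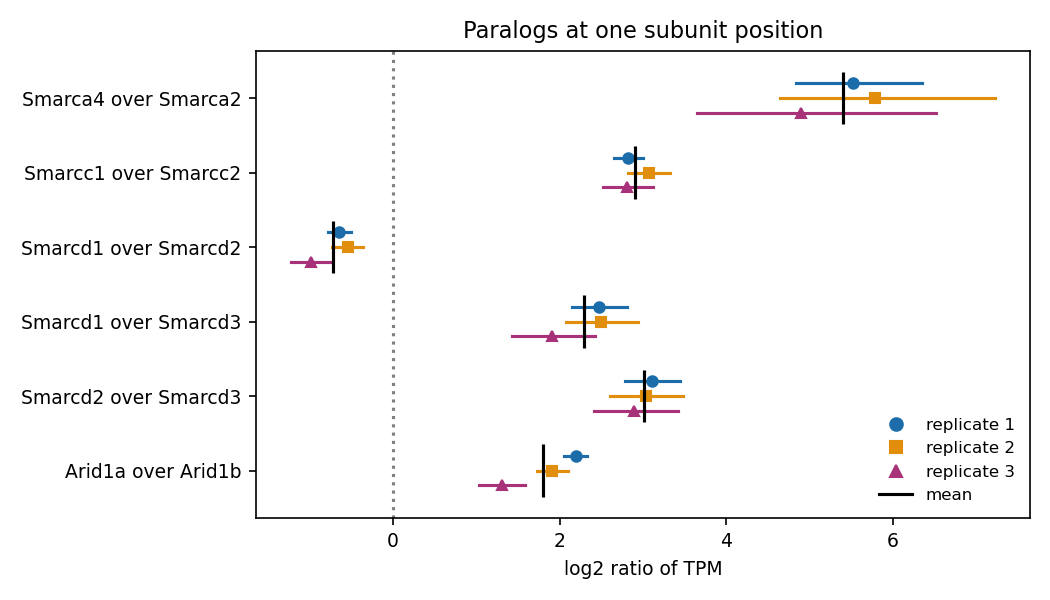
Log2 ratio of TPM for the 6 paralog pairs; points are replicates, horizontal lines their exact 95% counting intervals, black ticks the means, and the dotted line marks equal levels. The Smarca4 to Smarca2 ratio is the highest, at 5.40, and has the widest intervals; Smarcd1 over Smarcd2 is the ratio below 0.

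Sequence shared between paralogs could split reads between them. Of the words of 50 nt in the transcripts of the 10 genes, 0 occurred in another of the 10. The share of words found on the same strand of any other gene was at most 2.35%, in Smarcc1, all of it in the record Gm7004. Reads shared between genes can also leave fractional estimated counts, and the counts of 8 of the 10 genes were whole in every replicate. The exceptions were Smarcc1, 0.01 from a whole count at most, and Arid1a, 0.14 from it at most. The read length is not given in the sources used here.

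Spread between replicates was tested next, on counts normalised by TMM so that the library composition does not enter as it does in TPM. Among 12577 genes tested with edgeR's goodness-of-fit test, 1.84% varied beyond genes of their abundance (Benjamini-Hochberg adjusted p under 0.05). Of the 10 subunit genes, 9 passed the filter on low counts, Smarca2 being left out, and 1 varied: Arid1a, with 183.5, 167.5 and 57.9 normalised CPM in replicates 1, 2 and 3 (adjusted p = 0.000571, edgeR). The other 8 had adjusted p-values of 1.00 after rounding. On simulated counts the test found 3 of 50 genes changed by a fold of 2 in 1 replicate. These p-values therefore do not show that the 8 were stable. Without replicate 3, edgeR called 0 of the 9, with 0 also at an unadjusted p under 0.05, so the call on Arid1a rests on that library.

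Beyond Arid1a, most tested subunit genes had their lowest normalised CPM in replicate 3. The difference of replicate 3 from the mean of replicates 1 and 2, on the log2 CPM scale, was below 0 in 9 of 9, against 49.7% of all genes tested. Its median was -0.41, against 0.003 over all genes tested. It ran from -0.01 in Smarcd3 to -1.59 in Arid1a. In Smarca4 it was -0.56 (169.8, 163.5 and 112.8 normalised CPM), in Smarcd1 -0.49 and in Smarcb1 -0.42. Of the 17 other SWI/SNF genes tested, 10 were below 0, with a median of -0.03.

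Transcript length and GC content moved with this difference. The 339 genes in the same quintile of length and of GC content as Arid1a, itself included, had a median of -0.41, and 11 of them lay lower than Arid1a. Smarca4 was in the same quintiles, and 38.1% of these genes lay lower than it. For the remaining tested subunit genes, the share of genes in their own quintiles that lay lower ran from 14.5% (Smarcb1) to 44.6% (Smarcd3). All 9 lay below the median of their length decile, by the widest margin in Arid1a. The weighted length of Arid1a itself was 6307, 6464 and 5297 nt in replicates 1, 2 and 3, shortest in the library where its count was lowest. With a smooth trend with length corrected, edgeR called Arid1a (adjusted p = 0.000332), and its adjusted p ran from 0.000332 to 0.0227 over the alternatives that kept replicate 3. That trend held no term for GC content, so the call cannot decide what length and GC content contribute together. The part of length, GC content and isoform weighting in the Arid1a difference was not tested.

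**Figure D4:**
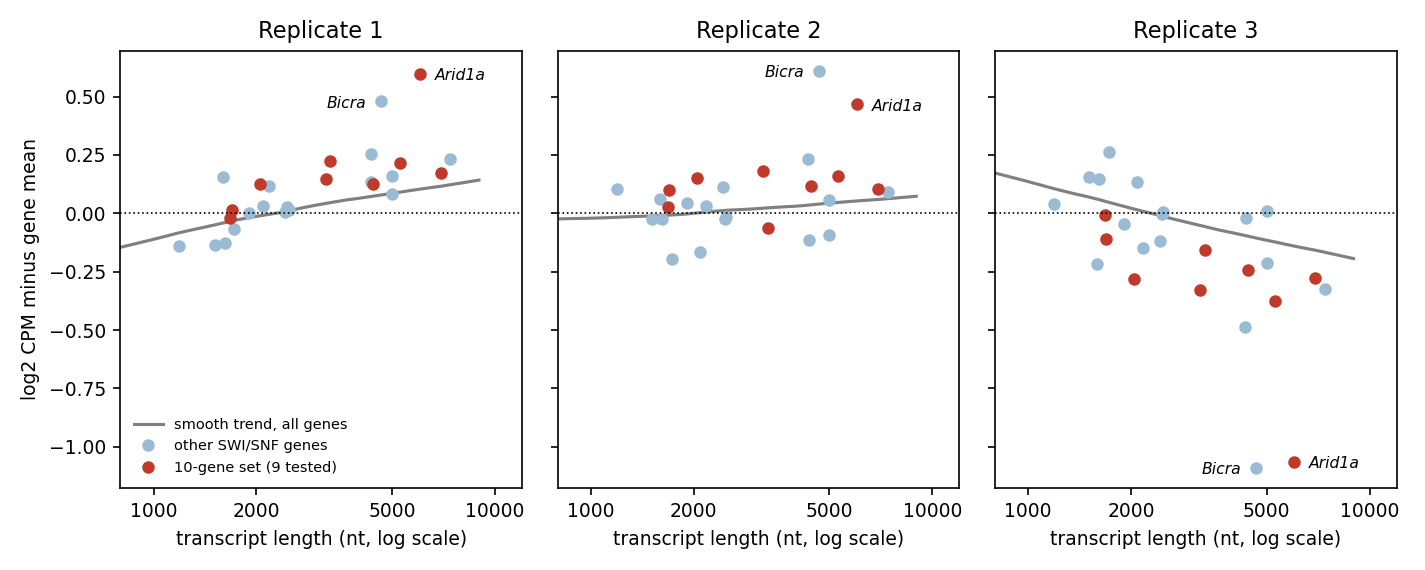
Deviation of each gene's log2 CPM from its mean over the replicates against transcript length (nt, log scale), 1 panel per replicate, for the 9 tested genes of the set (red) and the 17 other SWI/SNF genes (blue); the grey line is a smooth trend over genes averaging 100 counts or more. Arid1a and Bicra lie near -1.06 and -1.09 in replicate 3, far below the trend.

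The remaining SWI/SNF genes were taken from a list of 19. A mean of at least 1 TPM was reached by 16, and the median of the 19 mean levels was 4.85 TPM. In the variability test 1 of 17 was called: Bicra, a scaffold gene of the non-canonical form (ncBAF), with 17.5, 19.2 and 5.81 normalised CPM (adjusted p = 0.0124, edgeR). Its difference in replicate 3 was -1.58, of the size seen in Arid1a, and its GC content and length were in the same quintiles. Its paralog Bicral had 67.7, 63.1 and 52.3 normalised CPM and was not called.

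At positions with neuronal paralogs, the genes of dividing cells were the higher. Actl6a, an actin-related subunit, had 33.68, 28.66 and 25.13 TPM, whereas its neuronal paralog Actl6b had 1, 0 and 0 counts. Actl6a was at least 162-fold and 145-fold higher in replicates 2 and 3, set against a floor of 3 counts in each library, and 1328-fold higher in replicate 1 with a counting interval of 238 to 52508. Dpf2, a histone reader of the canonical complex, had 15.07, 11.35 and 7.81 TPM. The neuronal Dpf1 had 2.27, 0.86 and 1.66 TPM, and the log2 ratio of Dpf2 to Dpf1 was 2.90 ± 0.76 (SD, n = 3). The weighted length of Dpf1 was 1326, 2414 and 1432 nt in replicates 1, 2 and 3, longest where its TPM was lowest. In normalised CPM, Dpf1 had 6.08, 5.54 and 7.68. Dpf3, a paralog of heart and muscle, had 2, 0 and 3 counts, which does not exceed the floor. Ss18, which joins canonical and non-canonical complexes, exceeded Ss18l1 by 4.45 ± 0.09 (SD, n = 3) on the log2 scale.

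RNA from genes of the other forms of the complex was detected, while the complexes themselves were not measured. For PBAF, the form that carries Arid2 in place of an ARID1 protein, Pbrm1 had 12.2 ± 2.60, Phf10 10.1 ± 2.46, Brd7 7.96 ± 1.25 and Arid2 4.85 ± 1.58 TPM (SD, n = 3). Arid2 thus lay above Arid1b in 3 of 3 replicates, by 1.16 ± 0.20 (SD, n = 3) on the log2 scale, and below Arid1a in replicates 1 and 2 but not in replicate 3, where it had 3.27 TPM and Arid1a 3.15. For ncBAF, Brd9 had 3.73 ± 1.08, Bicral 4.67 ± 1.81 and Bicra 1.28 ± 0.84 TPM (SD, n = 3). Among shared subunits, Smarce1 had 11.3 ± 2.65 TPM (SD, n = 3), above Smarcb1 in replicates 1 and 3 (10.25 against 6.45 TPM in replicate 3) and below it in replicate 2. Actb, which is also the cytoskeletal actin, had 505.7 ± 210.2 TPM (SD, n = 3). By TPM, Bcl7c was the highest BCL7 gene at 6.96 ± 0.64 (SD, n = 3), above Bcl7b and Bcl7a in every replicate. Its order against Bcl7a depended on the scaling by length. In normalised CPM, Bcl7a had 18.8, 18.6 and 11.2 and Bcl7c 18.3, 21.7 and 20.8 in replicates 1, 2 and 3.

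**Figure D5:**
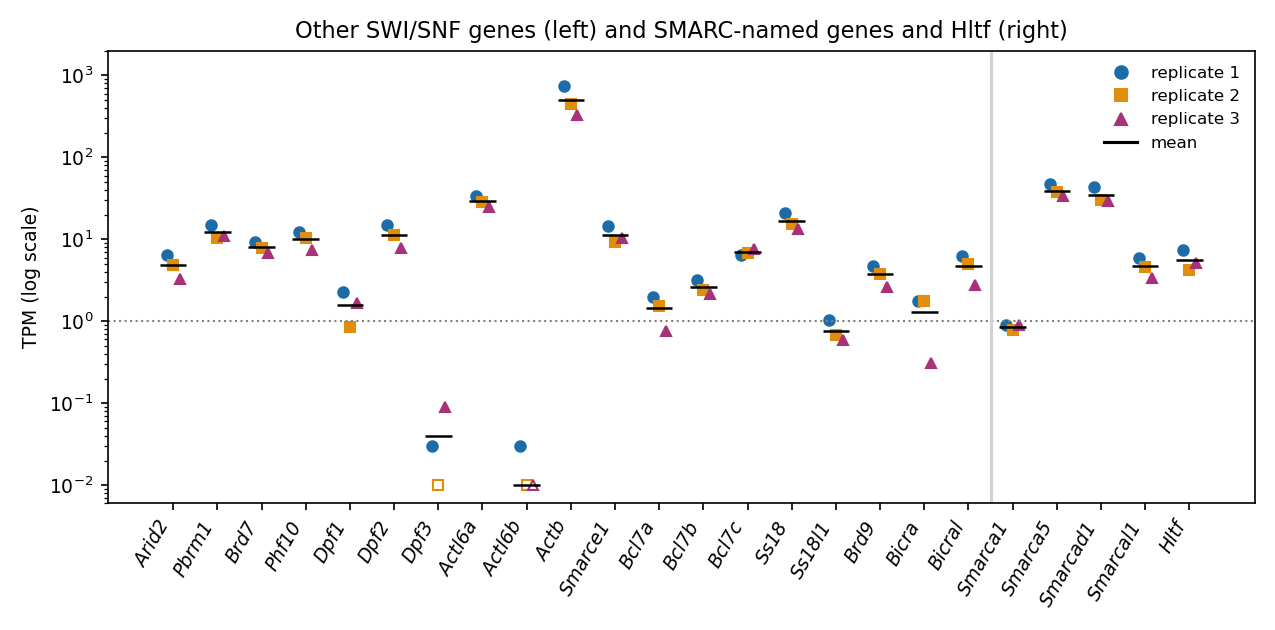
TPM (log scale) of the 19 other SWI/SNF genes and, right of the grey line, of 5 genes of other remodelling families; points are replicates, black bars means, the dotted line marks 1 TPM, and open symbols drawn at the bottom are values of 0. Actl6b and Dpf3 lie at the bottom, far below Actl6a and Dpf2.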

How the data were processed

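RNA-seq of E14 cells was analysed in 3 replicates, numbered from their titles. Libraries were directional and made after removal of ribosomal RNA, per the labels' protocols. STAR, RSEM and mm10 (GRCm38) are named without versions, per the submitters' processing notes; annotation release and strand setting are not given in the sources used here. The authors deposited, per the file headers, RSEM's estimated counts (expected counts, not normalized) and TPM, scaled by a length weighted by estimated isoform share.

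Gene IDs were matched to GENCODE vM21 (55227 of 55487). Members and lists were chosen with earlier results of these data known. Genes named are these and genes that overlap or share words with them (Chpf2, Mir671, Gm7004), named after their values were seen. Paralog ratios are log2 ratios of TPM without a pseudocount, with Clopper-Pearson 95% intervals from counts. For edgeR 4.0.16 (R 4.3.3), counts were rounded, filtered by filterByExpr, TMM-normalised and fitted with an intercept and trended dispersion; goodness-of-fit p-values were adjusted over all genes tested. On counts simulated for 12577 genes, with 50 genes per fold size changed, 3 genes with a fold of 2 were found, 38 with a fold of 4, 40 with a fold of 8 and 38 with a fold of 16, and 1 call was false. Replicate 3 differences added 0.5 to CPM. Alternatives changed the length scaling, pseudocount, filter, normalization (DESeq2 1.42.0 size factors), dispersion, length trend and replicates. Other tools were numpy 2.4.6 and scipy 1.17.1 under Python 3.11.15, with pandas 2.3.3 for tables and matplotlib 3.10.9 for plots.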

Additional observations from a re-analysis of the deposited data

How the results depend on the processing

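Over 12 results and 84 alternatives (77 planned, 7 chosen after seeing the data), 65 stayed within 1 SD of the replicates or, for counts, within 1.5 times, 15 moved and 4 reversed. CPM without length scaling gave log2 ratios of 7.14 for Smarca4 over Smarca2, 3.34 for Smarcc1 over Smarcc2, 3.28 for Smarcd1 over Smarcd3 and, reversed, 0.26 for Smarcd1 over Smarcd2; the change follows from the lengths no longer used. The longest transcript, chosen after seeing the data, gave 7.03 for Smarca4 over Smarca2, -0.012 for Smarcd1 over Smarcd2, 3.47 for Smarcd1 over Smarcd3 and 3.49 for Smarcd2 over Smarcd3. A pseudocount of 1 gave 3.16 for the ATPase pair, 2.48 for the SMARCC pair, 1.79 for Smarcd1 over Smarcd3 and 2.44 for Smarcd2 over Smarcd3, and one of 0.1 gave 4.90 for the ATPase pair, since a pseudocount shrinks ratios of low genes. The number of subunit genes that varied was from 0 to 1 when each replicate was left out, 0 without replicate 3. With CPM the summed level over Smarcb1 was 1.45 for the ATPase pair, 2.21 for the SMARCC pair and, reversed, 1.60 for the ARID1 pair. The summed ARID1 level over Smarcb1 was from -0.24 to 0.15 with each replicate left out, above 0 without replicate 3. The summed ATPase level over Smarcb1 was from -0.0059 to 0.076 in the same way, below 0 without replicate 1. Depth limits Smarca2 most: its 16, 6 and 5 counts set the width of the ATPase interval. No paired analysis was possible because the RNA-seq samples form a single group.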

Other observations

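Genes with SMARC names that belong to other remodelling families, and Hltf, gave a further set of levels. Smarca5, the ATPase of the ISWI family, had 39.4 ± 6.94 TPM (SD, n = 3) and Smarcad1, a remodeller linked to heterochromatin upkeep, 34.3 ± 7.79 TPM (SD, n = 3). Both lay above each of the 10 SWI/SNF genes in every replicate. Smarca1, the paralog of Smarca5, had 0.86 ± 0.07 TPM (SD, n = 3), so the ISWI pair, like the SWI/SNF ATPase pair, had 1 member below 1 TPM. Smarcal1 had 4.67 ± 1.25 and Hltf 5.57 ± 1.59 TPM (SD, n = 3). In replicate 3, Smarca5 and Smarcad1 had 511.1 and 309.5 normalised CPM, against 445.0 and 303.3 in replicate 1. Smarca4 had 112.8 against 169.8. GC content differed too, at 40.7% for Smarca5 and 41.1% for Smarcad1 against 55.9% for Smarca4, and its part in these values was not tested.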
